A study of Homo sapiens with 6 samples.

Results

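The transcripts described here are those of 9 genes of the tight junction: the claudin genes CLDN1, CLDN3, CLDN4, CLDN6, CLDN7 and CLDN11, the occludin gene OCLN, and TJP1 and TJP3, which encode the scaffold proteins ZO-1 and ZO-3. They were picked by gene symbol, and each symbol matched 1 of the 31814 genes in the deposited expression table. The cells were of the human line H69, grown in serum-supplemented RPMI medium and kept for 24 h with 1 µM trichostatin A (TSA), an inhibitor of histone deacetylases, or with its solvent DMSO as the vehicle. Each group held 3 messenger RNA libraries. In the tag for treatment the exposed samples carry the name HSA, whereas the series title and design text name TSA, and TSA is used here. Nothing in the labels says that libraries of a group were grown as separate cultures, so the tests measure the spread between libraries, which may be technical.

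Tight junctions seal the space between neighbouring epithelial cells. Claudins span the membrane and polymerise into the strands of the junction, and the set of claudins a cell makes decides which ions the strands let through. Occludin and its relative tricellulin are a second kind of membrane protein of the strands. ZO proteins bind the tails of claudins and of occludin from inside the cell and tie them to the actin cytoskeleton.

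No label states from which tissue the cells came, and H69 is the name of both a small cell lung cancer line and a line of bile duct cells. All 7 neuroendocrine markers checked were at 1 TPM (a transcript level scaled by gene length and by the library total) or more in all 6 libraries, and 2 of 6 bile duct markers were. The summed level of the neuroendocrine markers was 2060 to 2456 TPM in vehicle and 1221 to 1276 TPM in TSA, and that of the bile duct markers, led by KRT19, was 184 to 281 and 88.3 to 145 TPM. Of 6 fibroblast markers none was at 1 TPM in all libraries, and their sum was 0.358 to 1.09 TPM in vehicle and 5.63 to 7.74 TPM in TSA, led by COL1A1 (mean 0.510 and 5.44 TPM). The 5 endothelial markers in the table, CLDN5 among them, summed to at most 0.765 TPM, and 6 leukocyte markers to 5.05 to 6.43 TPM in vehicle and 8.63 to 11.2 TPM in TSA, led by CD14 (mean 4.07 and 4.25 TPM) and CD68 (1.14 and 3.88 TPM). The part of these sums in the results was not tested. Library depth, as the reads that could be recovered from the TPM values, was at least 22533307 to 26148651 reads. Mitochondrial transcripts took 4.97 to 16.9% of the TPM total, with the highest share of each group in its replicate 1 library (12.3% in vehicle and 16.9% in TSA).

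CLDN3, CLDN4 and CLDN7, claudins that tighten epithelial seals, fell after TSA, to levels 4.70-fold, 3.50-fold and 2.85-fold below vehicle. TJP3, the gene of ZO-3, rose 19.9-fold. OCLN, TJP1 and CLDN11 did not pass the test, and CLDN1 and CLDN6 were too low to be tested. So of the 7 members that could be tested 3 were lower, 1 was higher and 3 did not pass, with a median log2 fold change of −0.35 against −0.095 over all 17596 tested genes. Of all tested genes 62.2% passed the same test, 28.0% higher and 34.2% lower, so that the members' share of calls is near the background. Among the 6 members at 1 TPM or more in all vehicle libraries, which leave out TJP3, 0 were higher and 3 lower. Tests were run in limma on log2(TPM + 1). A gene entered if 3 or more libraries held 1 TPM of it, and it passed if its p, adjusted by Benjamini-Hochberg across the genes that entered, was under 0.05. In bulk RNA, fewer cells that make a transcript and less of it per cell cannot be told apart.

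The stretches just before the transcription start of the 4 genes that passed the test are shown because these genes moved in both directions. They are the 250 bases before the most upstream start that RefSeq lists, in GRCh38.p14 and 5′ to 3′ along the gene: chr7:73770271-73770520, minus strand for CLDN3, chr7:73830746-73830995, plus strand for CLDN4, chr17:7263214-7263463, minus strand for CLDN7 and chr19:3708134-3708383, plus strand for TJP3. Capitals mark the matches, on either strand, to 3 motifs searched: GGGCGG (the GC box bound by SP1-type factors), CAGGTG (an E-box bound by SNAI and ZEB repressors) and TATAAA (the TATA box).
CLDN3: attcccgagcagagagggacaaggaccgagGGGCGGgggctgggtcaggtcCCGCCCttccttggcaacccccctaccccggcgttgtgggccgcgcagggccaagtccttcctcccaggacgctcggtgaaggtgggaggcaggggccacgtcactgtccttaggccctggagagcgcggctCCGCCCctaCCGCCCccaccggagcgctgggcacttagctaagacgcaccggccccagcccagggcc
CLDN4: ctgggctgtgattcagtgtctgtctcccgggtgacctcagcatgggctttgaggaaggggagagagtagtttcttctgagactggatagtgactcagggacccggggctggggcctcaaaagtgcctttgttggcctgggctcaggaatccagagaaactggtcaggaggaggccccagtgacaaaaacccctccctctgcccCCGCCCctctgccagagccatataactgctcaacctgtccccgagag
CLDN7: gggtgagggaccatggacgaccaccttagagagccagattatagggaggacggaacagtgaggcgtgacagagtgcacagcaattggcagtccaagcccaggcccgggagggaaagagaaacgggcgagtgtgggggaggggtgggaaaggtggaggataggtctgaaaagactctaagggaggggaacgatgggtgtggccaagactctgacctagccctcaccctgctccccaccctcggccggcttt
TJP3: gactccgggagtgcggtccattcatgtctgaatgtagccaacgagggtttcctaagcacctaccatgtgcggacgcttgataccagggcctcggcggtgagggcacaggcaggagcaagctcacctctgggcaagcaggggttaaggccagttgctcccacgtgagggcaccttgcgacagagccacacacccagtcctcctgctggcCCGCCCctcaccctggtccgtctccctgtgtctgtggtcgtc

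The GC box was found 4 times before CLDN3, once before CLDN4 and TJP3 and not at all before CLDN7, where the window has no capitals. It is present in 42.6% of the 35114 RefSeq windows of this length. CAGGTG, which 17.5% of windows hold, was in none of these 4 but in those of OCLN and TJP1, starting 33 and 88 bases before the start. TATAAA, found in 10.7% of windows, was in none of the 9. The 3 claudin genes that fell had 19, 4 and 9 CpG dinucleotides in this window, in the order CLDN3, CLDN4 and CLDN7, and TJP3 had 12, against a median of 11 over all windows. The other 5 held 28 (CLDN1), 18 (CLDN6), 29 (CLDN11), 24 (OCLN) and 26 (TJP1), so that CLDN4 had the fewest of the 9, and CLDN3 had 1 more than CLDN6. A match describes the letters of the window and does not show binding.

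**Figure D1:**
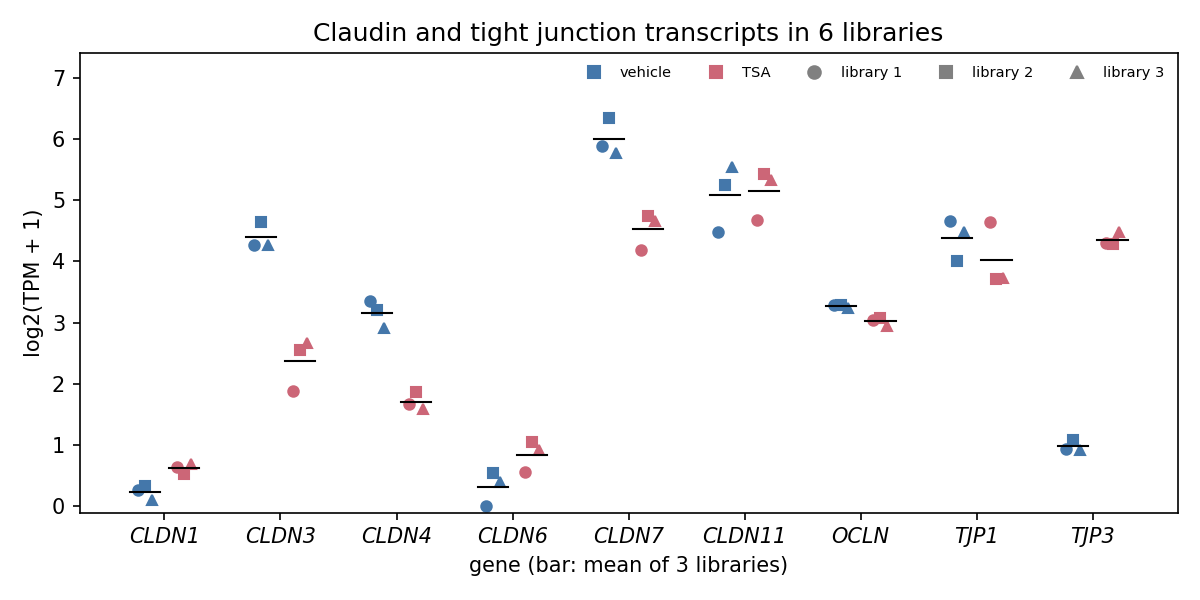
Levels of the 9 transcripts in each library on the log2(TPM + 1) axis, with vehicle in blue, TSA in red, a symbol for each replicate number and a bar at the mean of the 3 libraries. The TSA points of CLDN3, CLDN4 and CLDN7 lie below all vehicle points, those of TJP3 lie above them, and those of CLDN11 and TJP1 mix with them.

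Among the claudins, CLDN7 had the highest level in vehicle. CLDN7 (ENSG00000181885.14), which binds the adhesion protein EPCAM, was at 58.3, 79.7 and 53.2 TPM in vehicle libraries 1 to 3 and at 17.2, 25.6 and 24.3 TPM in TSA libraries 1 to 3. Every TSA library was below every vehicle library. The means were 63.7 ± 14 and 22.4 ± 4.48 TPM (SD, n = 3 each). On the log2 scale CLDN7 differed by −1.47 (standard error 0.20, limma adjusted p 0.00083). On the same strand, GENCODE 29 places another gene, AC003688.1, whose exons share 269 bases with those of CLDN7. It is listed as RP1-4G17.5 in the deposited table and went from 155 ± 24.5 to 60.5 ± 11.4 TPM (log2 fold change −1.35, adjusted p 0.00062). The sources do not say how reads in the shared bases were assigned, so the level of CLDN7 itself is uncertain, and both genes fell.

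CLDN3 and CLDN4 encode the claudins that serve as receptors of Clostridium perfringens enterotoxin, and they are neighbours on chromosome 7 with no other protein-coding gene between them in RefSeq. CLDN3 (ENSG00000165215.5) was at 18.2, 24.1 and 18.2 TPM in vehicle and at 2.70, 4.85 and 5.33 TPM in TSA. Its groups did not overlap, with means of 20.2 ± 3.42 and 4.29 ± 1.40 TPM and a log2 fold change of −2.03 (standard error 0.24, limma adjusted p 0.00039). CLDN4 (ENSG00000189143.8) was at 9.16, 8.21 and 6.56 TPM in vehicle and at 2.20, 2.63 and 2.02 TPM in TSA. These groups did not overlap either, with means of 7.98 ± 1.31 and 2.28 ± 0.314 TPM and a log2 fold change of −1.45 (standard error 0.17, limma adjusted p 0.00039). Neither gene beside the pair was called lower. ABHD11, next to CLDN3, rose from 27.6 ± 3.91 to 63.2 ± 1.31 TPM (limma adjusted p 0.0002), and METTL27, next to CLDN4, was at 6.03 ± 1.02 and 7.70 ± 2.80 TPM (adjusted p 0.4).

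CLDN11 (ENSG00000013297.6), the claudin of myelin and of the blood-testis barrier, was at 21.4, 36.9 and 45.3 TPM in vehicle and at 24.5, 41.9 and 39.1 TPM in TSA. The groups overlapped, and replicate 1 had the lowest value in each. The means were 34.5 ± 12.1 and 35.2 ± 9.33 TPM, and the log2 fold change of 0.05 had a 95% interval from −0.70 to 0.81 (limma adjusted p 0.89). Changes inside that interval were not excluded by this fit. With a block for the replicate number the log2 fold change was again 0.05, with a standard error of 0.11 against 0.31. The sign turned when single libraries were left out (−0.25 to 0.29). The mitochondrial share was highest in the same replicate 1 libraries, and its part in these values was not tested. In GENCODE 29 the same-strand gene AC026316.5 shares 683 exonic bases with CLDN11, so the reads of CLDN11 may be split. The values of AC026316.5 are not analysed here, and whether reads were split was not tested.

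CLDN1 and CLDN6 were near the lower end of what was measured. CLDN1 (ENSG00000163347.5), the claudin of the skin barrier, was at 0.204, 0.261 and 0.0771 TPM in vehicle and at 0.564, 0.439 and 0.617 TPM in TSA, from 5, 6 and 2 and from 15, 12 and 16 recovered reads. CLDN6 (ENSG00000184697.6), a claudin of embryonic epithelia, was listed at 0 in 1 vehicle library and at 0.458 and 0.325 TPM in the others, and at 0.475, 1.08 and 0.893 TPM in TSA. In both genes all TSA values were above all vehicle values, for which the two-sided exact permutation test gives p = 0.10, the smallest that 3 against 3 libraries allow. Fitted without the filter on low values, the difference was 0.38 on the log2(TPM + 1) scale for CLDN1 (standard error 0.10, limma adjusted p 0.023) and 0.53 for CLDN6 (standard error 0.20, adjusted p 0.088). The start of CLDN6 lies beside TNFRSF12A on the opposite strand, and GENCODE 29 gives them 40 shared exonic bases. TNFRSF12A rose from 7.70 ± 1.48 to 66.5 ± 13.8 TPM (limma adjusted p 4e-05). Whether the authors counted by strand is not stated in the sources, and the part of TNFRSF12A reads in the CLDN6 values was not tested.

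Within the summed TPM of the 18 claudin genes in the table, CLDN7 held 36.8 ± 5.14% in vehicle and 18.9 ± 2.53% in TSA (SD, n = 3 each). The share of CLDN3 went from 11.7 ± 0.928 to 3.62 ± 1.00%, and that of CLDN4 from 4.69 ± 1.12 to 1.95 ± 0.221%. The share of CLDN11 was 19.9 ± 6.36% in vehicle and 29.7 ± 6.0% in TSA, with single libraries at 13.9, 19.2 and 26.6% and at 22.8, 33.5 and 32.9%. CLDN12 was at 19.9 ± 1.81 and 35.9 ± 7.09%. CLDN7 thus had the greatest share in each vehicle library, while in TSA CLDN12 led in library 1 and CLDN11 in libraries 2 and 3. The summed claudin level was 154, 193 and 170 TPM in vehicle and 108, 125 and 119 TPM in TSA, without overlap. No test was made on these sums and shares.

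**Figure D2:**
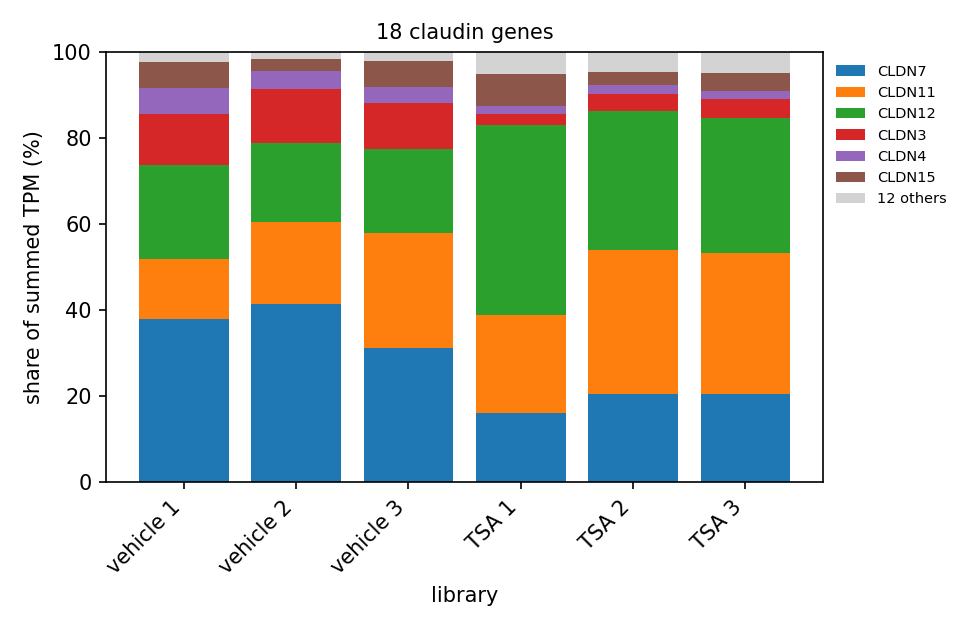
Stacked bars of the share (percent) that each gene takes of the summed TPM in each of the 6 libraries, for the 18 claudin genes, with the smaller ones joined in grey. The CLDN7 share is 36.8% on average in vehicle and 18.9% in TSA.

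OCLN (ENSG00000197822.6), which encodes the strand protein occludin, was at 8.79, 8.71 and 8.40 TPM in vehicle and at 7.21, 7.46 and 6.71 TPM in TSA. All TSA values were below all vehicle values, yet the difference was small and did not pass the test. The log2 fold change was −0.25 with a 95% interval from −0.53 to 0.04 (limma adjusted p 0.11), and it turned to 0.19 (adjusted p 0.31) once trends with transcript length and GC content were removed from each library, within adjusted p of 0.069 to 0.62 over its 19 other settings. RefSeq holds a transcribed pseudogene copy, OCLNP1, on the same chromosome. Whether reads were shared with it, which would make the OCLN values uncertain, was not tested. The neighbour of OCLN on chromosome 5 is MARVELD2, the gene of tricellulin, which strengthens the corners where 3 cells meet. MARVELD2 fell from 43.9 ± 2.72 to 16.4 ± 1.05 TPM (log2 fold change −1.37, standard error 0.10, limma adjusted p 5e-05).

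The scaffold gene TJP3 (ENSG00000105289.10) was the member with the greatest change. ZO-3 is the ZO protein found mainly in epithelia. TJP3 was at 0.914, 1.12 and 0.895 TPM in vehicle and at 18.7, 18.5 and 21.2 TPM in TSA, from 26, 30 and 27 and from 577, 586 and 639 recovered reads. The groups were far apart, with means of 0.977 ± 0.125 and 19.4 ± 1.53 TPM and a log2 fold change of 3.37 (standard error 0.14, limma adjusted p 8.8e-06). TJP3 reached 1 TPM in only 1 vehicle library and so was tested because of its TSA levels. The pseudocount of 1 understates its change, which was 4.43 on the log2 scale with limma's voom on the recovered reads. Of its neighbours on chromosome 19, PIP5K1C also rose, from 12.6 ± 1.52 to 36.6 ± 3.35 TPM (limma adjusted p 0.00011), and APBA3 was at 4.98 ± 0.767 and 5.84 ± 1.19 TPM (adjusted p 0.42).

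TJP1 (ENSG00000104067.12), the gene of ZO-1, was at 24.3, 15.0 and 21.3 TPM in vehicle and at 24.0, 12.1 and 12.3 TPM in TSA. TSA library 1 was close to the highest vehicle library, and the groups overlapped. The log2 fold change was −0.35 with a 95% interval from −1.06 to 0.36 (limma adjusted p 0.34). Without TSA replicate 1 it was −0.65 (adjusted p 0.033), and with length and GC trends removed it turned to 0.08 (adjusted p 0.68). These are the lowest and the highest adjusted p over its 19 other settings. TSA replicate 1 also had the highest mitochondrial share, and the part of that in the TJP1 values was not tested.

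Between the scaffold genes, the TPM level of TJP1 was above that of TJP3 in all 3 vehicle libraries and in TSA library 1, and below it in TSA libraries 2 and 3.

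**Figure D3:**
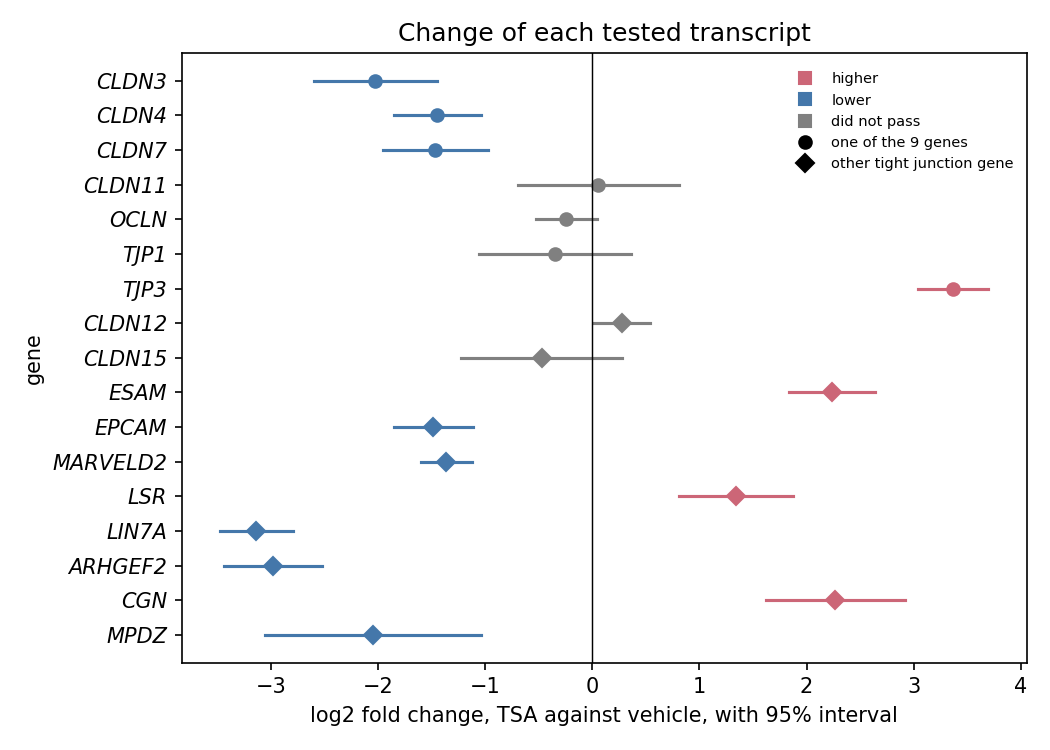
Log2 fold change of TSA against vehicle (x axis) with its 95% interval from limma for the tested members (circles) and the named genes of the other tight junction lists (diamonds), in red where higher, blue where lower and grey where the test was not passed. CLDN3 at −2.03, CLDN4 at −1.45 and CLDN7 at −1.47 lie left of 0 and TJP3 at 3.37 right of it, while the intervals of CLDN11, OCLN and TJP1 include 0.

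Not overlapping between the groups were 5 of the 7 tested members, 1 with TSA above (TJP3) and 4 with TSA below (CLDN3, CLDN4, CLDN7 and OCLN). Over all tested genes this held for 67.0%, 30.8% with TSA above and 36.2% with TSA below, so 5 of 7 is near the background. The authors' deposited table of fold changes, which was not filtered in this way, gives log2 fold changes of −2.14 for CLDN3, −1.73 for CLDN4, −1.43 for CLDN7 and 4.38 for TJP3. It puts CLDN1 at 1.64 (FDR 0.0088) and CLDN6 at 1.70 (FDR 0.04). CLDN11, OCLN and TJP1 have an FDR of 0.77, 0.41 and 0.35 in the authors' deposited table. By an FDR under 0.05 the authors' deposited table thus has 3 members higher and 3 lower, against 41.3% of all its genes in either direction, 21.8% higher and 19.5% lower. Those shares are over 31814 genes, many of them too low to enter the test used here. Among the 17596 genes that entered it 62.2% passed, so no excess among the members is read from the comparison.

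**Figure D4:**
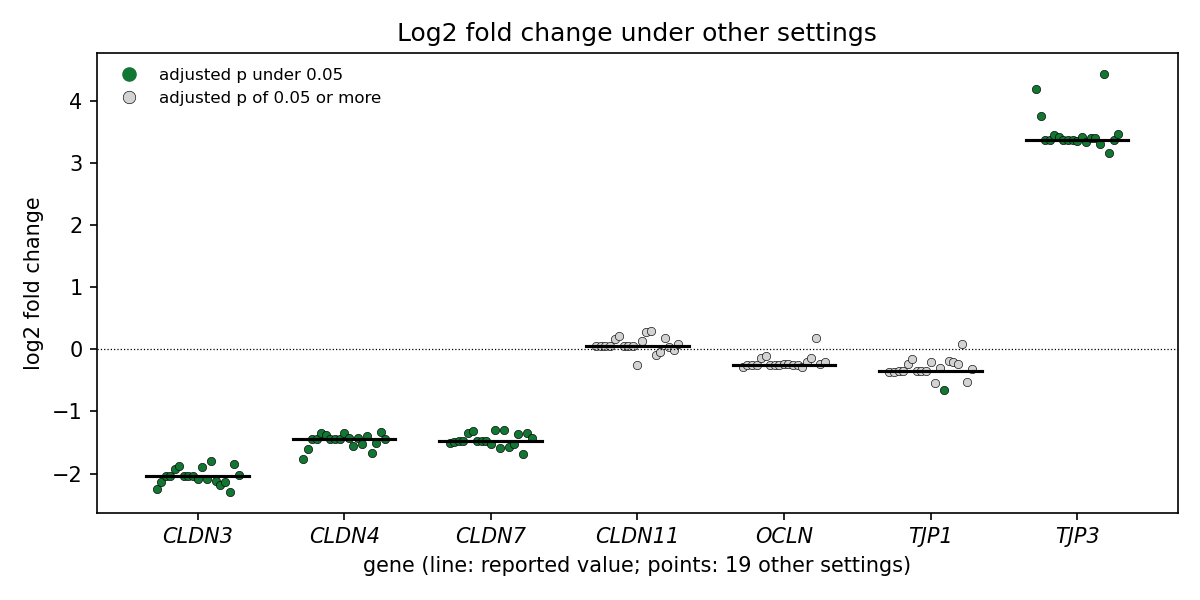
Log2 fold change of the 7 tested members (y axis) as reported (line) and under 19 other settings (points), green where the adjusted p was under 0.05. CLDN3, CLDN4 and CLDN7 stay between −2.29 and −1.3 and TJP3 between 3.15 and 4.43 with every point green, while TJP1 has 1 green point, without TSA replicate 1.

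Of 17 further claudin genes 12 were in the table and 4 passed the filter, of which 1 was higher and 3 did not pass. Over all tested genes 62.2% passed. By the naming rule CLDN12 and CLDN15 are given. CLDN12 was at 33.6, 35.3 and 33.3 TPM in vehicle and at 47.4, 40.5 and 37.2 TPM in TSA, all above vehicle, with a log2 fold change of 0.28 (standard error 0.11, limma adjusted p 0.065). It passed with median-of-ratios scaling (0.40, adjusted p 0.015), quantile scaling (0.44, 0.0083), voom on recovered reads (0.42, 0.013) and length and GC trends removed (0.52, 0.0016), and its adjusted p ran from 0.0016 to 0.21 over 19 other settings. CLDN15, a claudin that forms cation pores in the gut, was at 8.09 ± 2.70 and 5.53 ± 2.04 TPM (limma adjusted p 0.23, and 0.049 to 0.53 over 19 other settings). The claudin that was higher, CLDN23, named after its value was seen, went from 0.206 ± 0.0624 to 1.61 ± 0.0848 TPM (log2 fold change 1.11, adjusted p 0.00043) and passed the filter only through its TSA libraries. The 8 claudins below the filter had at most 0.635 TPM in any library.

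Of 15 other membrane proteins of the junction 12 were tested, with 6 higher, 2 lower and 4 that did not pass, and a median log2 fold change of 0.59. Of the 9 at 1 TPM or more in all vehicle libraries 3 were higher and 2 lower. The background over all tested genes was 28.0% higher and 34.2% lower, with a median of −0.095. EPCAM, the partner of claudin-7, fell with CLDN7, from 565, 672 and 564 TPM to 177, 243 and 225 TPM (log2 fold change −1.49, standard error 0.15, limma adjusted p 0.0002). LSR, which recruits tricellulin to the corners between cells, went the other way to MARVELD2 and rose from 66.6 ± 14.5 to 171 ± 40.0 TPM (log2 fold change 1.34, adjusted p 0.0019). ESAM, an adhesion molecule best known from endothelium, rose from 0.472 ± 0.174 to 5.93 ± 0.757 TPM and passed the filter only through its TSA libraries, with a log2 fold change of 2.24 (adjusted p 5.8e-05), while the endothelial marker sum was at most 0.765 TPM.

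Of 26 other scaffold and polarity proteins 23 were tested, with 9 higher, 9 lower and 5 that did not pass, and a median of −0.38. Of the 22 at 1 TPM or more in all vehicle libraries 9 were higher and 9 lower. CGN, the gene of cingulin, which binds ZO proteins and actomyosin, rose from 3.22 ± 0.660 to 20.1 ± 7.73 TPM with a log2 fold change of 2.27 (standard error 0.27, limma adjusted p 0.00041). ARHGEF2, an activator of RhoA that cingulin can hold at the junction, fell from 81.2 ± 8.69 to 9.57 ± 2.70 TPM with a log2 fold change of −2.98 (adjusted p 3.3e-05). LIN7A, a polarity scaffold, fell from 40.2 ± 5.37 to 3.65 ± 0.374 TPM (log2 fold change −3.14, adjusted p 1.1e-05). MPDZ, which encodes the multi-PDZ scaffold MUPP1, fell from 87.1, 47.2 and 68.4 TPM to 29.8, 10.6 and 10.7 TPM (log2 fold change −2.05, standard error 0.42, adjusted p 0.0051), without overlap. Membrane and scaffold genes of the junction therefore included genes that rose and genes that fell.

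The genes outside these lists with the most similar levels over the 6 libraries, by Euclidean distance of log2(TPM + 1), were C14orf93 for CLDN3 (distance 0.438), PLSCR1 for CLDN4 (0.294), MAGOHB for CLDN7 (0.283), UBE2F for CLDN11 (0.555), ZNF16 for OCLN (0.176), WDR11 for TJP1 (0.174) and SLC8B1 for TJP3 (0.450). SLC8B1, for example, was at 0.951, 0.847 and 0.960 TPM in vehicle and at 19.6, 15.1 and 17.3 TPM in TSA. WDR11 shared the high TSA library 1 of TJP1, with 21.6, 11.5 and 11.9 TPM in TSA.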

How the data were processed

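Polyadenylated RNA was made into libraries with a strand-specific kit and sequenced on an Illumina instrument, per the labels' protocols. Per the submitters' processing notes, which give no roles, the tools were STAR 2.5.3a, featureCounts, edgeR, Picard 1.127 and FastQC 0.11.2, with hg19. The authors deposited TPM per gene of GENCODE 19, as the deposited file is named. The authors' deposited comparison gives log2 fold changes, a likelihood ratio score, p-values and FDR, per the file headers, and positive means higher in TSA.

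Samples were grouped by their treatment label. Groups were compared, two-sided, with limma 3.58.1 under R 4.3.3, using lmFit and then eBayes with a variance trend, on log2(TPM + 1) of the 17596 genes that reached 1 TPM in 3 or more libraries, with Benjamini-Hochberg adjustment across them. Whole reads, as the smallest integers in the same ratios as a gene's TPM values, were found for 100.0% of 27644 genes above 0 in at least 2 libraries (relative tolerance 1e-08). They may be a divisor of the true reads, so depths are lower bounds. No 2 libraries held identical values. The fit was also run on simulated libraries with known fold changes and with noise independent between libraries. No result here rests on that run.

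Members and lists were chosen with earlier results of these data known. All 9 members are named. Of each other list, up to 4 genes that passed and whose higher group averaged at least 5 TPM are named, in order of the size of their change, or the 2 with the highest level where fewer than 2 passed. A gene of the scaffold list is not reported here, and the list is counted without it. The nearest gene is that with the smallest distance. CLDN2, CLDN8, CLDN14, CLDN16, CLDN17, ZEB2 and PECAM1 were not analysed here. Other settings were quantile and median-of-ratios scaling, pseudocounts of 0.5 and 0.1, a 5 TPM filter or none, limma with robust variance or without the trend, a block for the replicate number, each library left out, limma's voom on recovered reads, and length and GC trends removed with GENCODE 29 (95.4% of tested genes matched). Fits without both replicate 1 libraries and without mitochondrial genes were added after the data were seen. GENCODE 29 is on another build than hg19, so gene coordinates are not given, and promoter sequences are RefSeq's on GRCh38.p14. Figures were drawn with matplotlib 3.10.9.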

Additional observations from a re-analysis of the deposited data

How the results depend on the processing

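CLDN3, CLDN4, CLDN7 and TJP3 kept their direction and an adjusted p under 0.05 in limma in all 19 other settings each, with log2 fold changes of −2.29 to −1.79, −1.76 to −1.33, −1.69 to −1.3 and 3.15 to 4.43. With single libraries left out these ran from −2.18 to −1.79, −1.56 to −1.35, −1.59 to −1.3 and 3.31 to 3.42. The settings that moved a call were few. TJP1 ranged from −0.65 to −0.19 with single libraries left out and passed without TSA replicate 1 (adjusted p 0.033), and was −0.52 (adjusted p 0.062) without both replicate 1 libraries. Without a filter CLDN1 passed (0.38, adjusted p 0.023), so that 2 members were higher, because more genes were tested. CLDN11 and OCLN passed in none of the 19. With only the 6 member claudins as the sum, the shares in vehicle and TSA were 15.9 and 6.46% for CLDN3, 50.2 and 34.4% for CLDN7, and 27.1 and 53.4% for CLDN11, by construction. Over all genes, 3788 to 5826 were higher and 4956 to 6848 lower. Median-of-ratios scaling moved the median over all tested genes from −0.0954 to 0.00851 on the log2 scale, so small changes depend on the scaling. Of 342 values of the 18 other genes named by the rule 336 kept their call, and the other 6 were of CLDN12 and CLDN15. Genes named after their values were seen are not among these 18.

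Same-numbered libraries deviated together for replicate 1 (correlation 0.633) and 2 (0.59) but not 3 (−0.0729), so the numbers were not taken to pair the libraries. With the replicate block 5637 genes were higher and 6848 lower, no call of a tested member changed, TJP1 had an adjusted p of 0.093, and CLDN12 (0.28, adjusted p 0.05) and CLDN15 (−0.47, adjusted p 0.049) came just under the threshold.

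The low reads of CLDN1 and CLDN6, at most 16 recovered in a library, limit what can be said of them.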

Other observations

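Adherens junctions and desmosomes, the other contacts of epithelial cells, also held genes that rose and genes that fell. Of 21 such genes 17 were tested, with 9 higher, 4 lower and 4 that did not pass, and a median log2 fold change of 0.77. Of the 9 higher, 3 were under 1 TPM in a vehicle library, and of the 14 at 1 TPM or more in all vehicle libraries 6 were higher and 4 lower. CDH1, the gene of E-cadherin, rose from 16.9, 19.6 and 18.5 TPM to 66.6, 66.6 and 65.4 TPM (log2 fold change 1.80, standard error 0.09, limma adjusted p 1.5e-05), while CLDN3, CLDN4 and CLDN7 fell. Among desmosome genes, PKP2 rose from 0.132 ± 0.0220 to 7.97 ± 0.276 TPM (log2 fold change 2.98, adjusted p 1e-05) and passed the filter only through its TSA libraries, and DSP and PERP fell, with log2 fold changes of −2.02 and −2.59 (adjusted p 0.0075 and 4e-05).

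Of 27 genes put on a list of epithelial regulators 19 were tested, with 11 lower, 5 higher and 3 that did not pass, and a median of −1.02. Of the 17 at 1 TPM or more in all vehicle libraries 3 were higher and 11 lower. The background share of calls was 34.2% lower and 28.0% higher. The list pools repressors with other genes, among them SPINT1 and ST14 (lower) and SPINT2 (higher), whose role as regulators was not checked. Its counts and median therefore do not describe a single class. The splicing factor gene ESRP1 fell from 204 ± 13.2 to 30.3 ± 1.5 TPM, and FOXA1, OVOL2 and FOXA2 fell with log2 fold changes of −2.75, −2.09 and −1.99 (limma adjusted p 7.7e-06, 3.2e-05 and 1.9e-05). These 4 were named by the size of their change. GRHL1 and GRHL3 of the same list, named after their values were seen, rose. Their log2 fold changes were 1.60 and 0.95 (limma adjusted p 0.00024 and 0.0017), and GRHL3 averaged under 1 TPM in vehicle. The 4 genes of known repressors of epithelial genes in the table, SNAI1, SNAI2, TWIST1 and ZEB1, named after their values were seen, did not move in 1 direction. SNAI1 rose from 2.62 ± 0.381 to 13.4 ± 2.85 TPM (adjusted p 0.00015), and ZEB1, under 1 TPM in 1 vehicle library, from 1.16 ± 0.345 to 2.48 ± 0.720 TPM (adjusted p 0.028). Fitted without the filter on low values, ZEB1 did not pass (limma adjusted p 0.064). SNAI2 fell from 40.0 ± 4.59 to 18.6 ± 1.06 TPM (adjusted p 0.00026), and TWIST1 from 46.5 ± 5.55 to 11.2 ± 2.48 TPM (adjusted p 0.00013). Whether any of them bears on the claudin values was not tested.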
